A study of Mus musculus with 51 samples.

Results

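The nuclear receptors of mouse liver were followed through loss of the FoxA forkhead factors and of the receptor HNF4a. The members are the 46 gene symbols of a list of the mouse nuclear receptor superfamily, and all 46 were found among the 33773 genes of the deposited expression matrix. Values are RPKM, the reads of a gene scaled by its length and by the library's depth, from RNA sequencing of 15 hepatocyte and 6 liver libraries. The hepatocyte groups were FoxA triple null (n = 4), FoxA3 null (n = 4), FoxA1/A2 lox (n = 3) and FoxA1/A2 Cre alfp (n = 4), and the liver groups were HNF4a control (n = 2) and HNF4a null (n = 4). The triple null came from FoxA1L/L FoxA2L/L FoxA3-/- mice that received, at 8 weeks of age, an AAV8 virus with Cre under the hepatocyte-specific Tbg promoter. Per the series' design text, its controls had the same alleles and a virus with GFP; these are taken here to be the FoxA3 null libraries, so FoxA3 is missing on both sides of that comparison. The lox group is undeleted per the labels, and the Cre alfp group has FoxA1 and FoxA2 deleted while FoxA3 stays intact. Alfp-Cre is driven by albumin and alpha-fetoprotein regulatory sequences, which are active from the fetal liver onward. Per the series' design text the HNF4a null livers lost HNF4a in the adult, and how HNF4a was deleted is not given in the sources used here. The labels do not say whether the libraries of a group came from separate animals, so p-values measure the spread between libraries.

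Nuclear receptors are transcription factors, most of which carry a zinc finger DNA-binding domain and a pocket for a small lipophilic ligand. In hepatocytes they couple bile acids, oxysterols, fatty acids, xenobiotics, retinoids, and thyroid and steroid hormones to transcription, mostly as heterodimers with RXR that bind repeats of a short half-site. FoxA proteins are pioneer factors that bind nucleosomal DNA at liver enhancers, and HNF4a is a nuclear receptor that binds many of the same enhancers. Levels of different genes are compared here per length, as RPKM.

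The labels were checked on their target genes. Foxa3 was at most 0.0114 RPKM in the FoxA3 null and triple null libraries and 19 to 34.5 RPKM in the other hepatocyte libraries. Foxa2 was 13.7 ± 4.59 RPKM (SD, n = 4) in FoxA3 null libraries and 0.366 ± 0.103 in triple null ones. Foxa2 was 12.5 ± 6.26 RPKM (n = 3) in lox and 1.09 ± 0.127 (n = 4) in Cre alfp. Foxa1 was 8.50 ± 1.85 RPKM in FoxA3 null, 3.28 ± 0.283 in the triple null (n = 4 each), 6.72 ± 1.81 in the lox group (n = 3) and 1.24 ± 0.1 in Cre alfp (n = 4), so the triple null kept more Foxa1 RNA than Cre alfp. The liver libraries labelled HNF4a null went against their label at the level of whole-gene RPKM, with Hnf4a at 519, 545, 487 and 545 RPKM against 126 and 118 in the controls. The matrix gives 1 value per gene, so transcripts without the deleted exons are not separated from complete ones. The 10 hepatocyte markers had a mean of at least 1 RPKM in each hepatocyte group, and their sum was 45102 to 50674 RPKM for FoxA3 null, 13051 to 18237 for the triple null, 46151 to 52323 for lox and 34884 to 43573 for Cre alfp. By FoxA3 genotype the hepatocyte libraries form 2 sides, lox and Cre alfp on one, FoxA3 null and triple null on the other. This is called the library split below. The labels give no batch, so a batch that follows this split and the FoxA3 genotype cannot be told apart. Absolute depth is unknown; relative to the shallowest library it was 1 to 1.1 in liver and 2.01 to 4.07 in hepatocytes.

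Of the 46 receptors, 34 had a mean of at least 1 RPKM in some group and 12 did not. The 12 were Nr0b1 (DAX1), Nr2e1, Nr2e3, Nr2f1, Nr4a2, Nr4a3, Nr5a1 (SF-1), Esr2, Esrrb, Rorb, Vdr and Pgr, and they ranged from 0 to 1.78 RPKM over single libraries. Nr0b1 was listed at 0 in each of the 21 libraries. Between 14 and 18 receptors had a mean of 10 RPKM or more in any one group, and 16 receptors did so in each of the 4 hepatocyte groups. The summed level of the family was 716 to 828 RPKM for lox, 1018 to 1196 for Cre alfp, 914 to 1028 in FoxA3 null libraries and 1041 to 1094 in triple null ones. In liver it was 613 and 643 RPKM in the controls and 885 to 948 in those labelled HNF4a null. The make-up behind those sums differed by group. Nr1i3, the xenobiotic receptor CAR, was the most abundant receptor in each lox and Cre alfp library, with 18.5% to 20.4% of the family's RPKM in the lox group and 24.3% to 36.6% in Cre alfp. Hnf4a supplied 19.3% and 19.6% of it in the liver controls and 55.1% to 57.8% in those labelled HNF4a null.

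**Figure D1:**
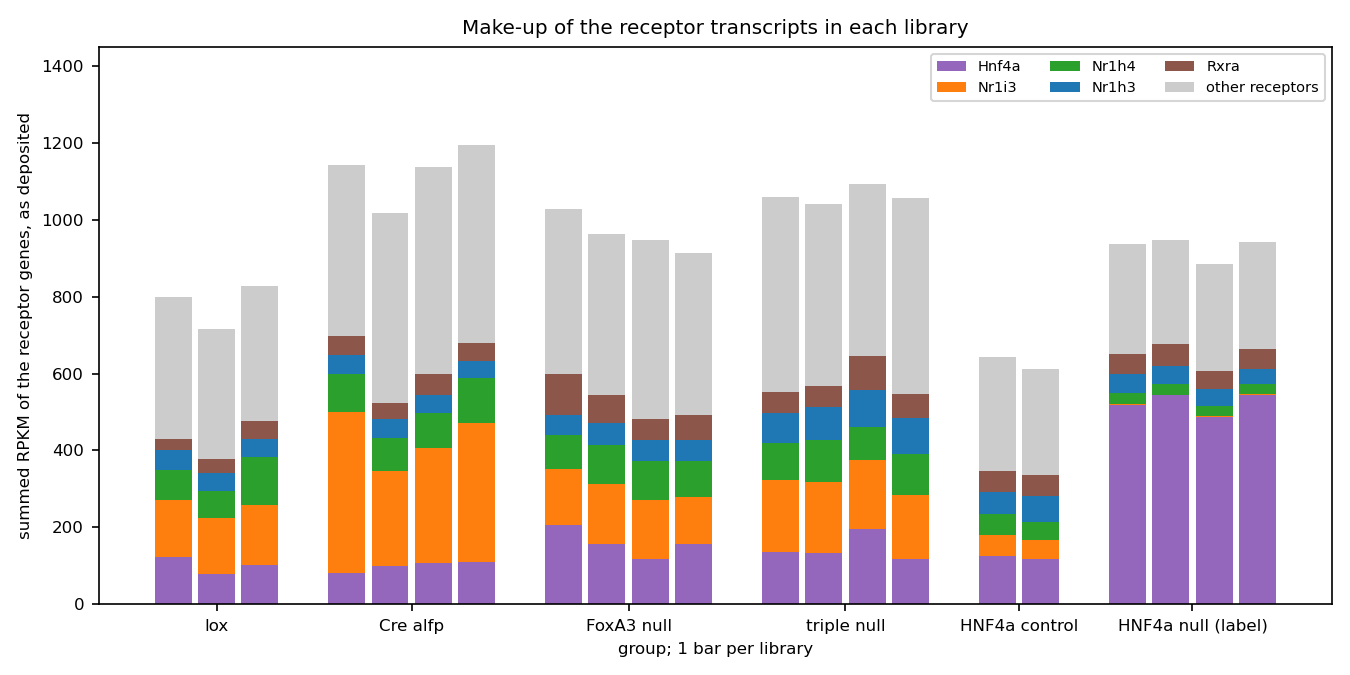
Summed RPKM (as deposited) of the 46 receptor genes, 1 bar per library, split into 5 named genes and the rest. The Nr1i3 segment is tallest in Cre alfp, and the Hnf4a segment reaches 487 to 545 RPKM in the libraries labelled HNF4a null.

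**Figure D2:**
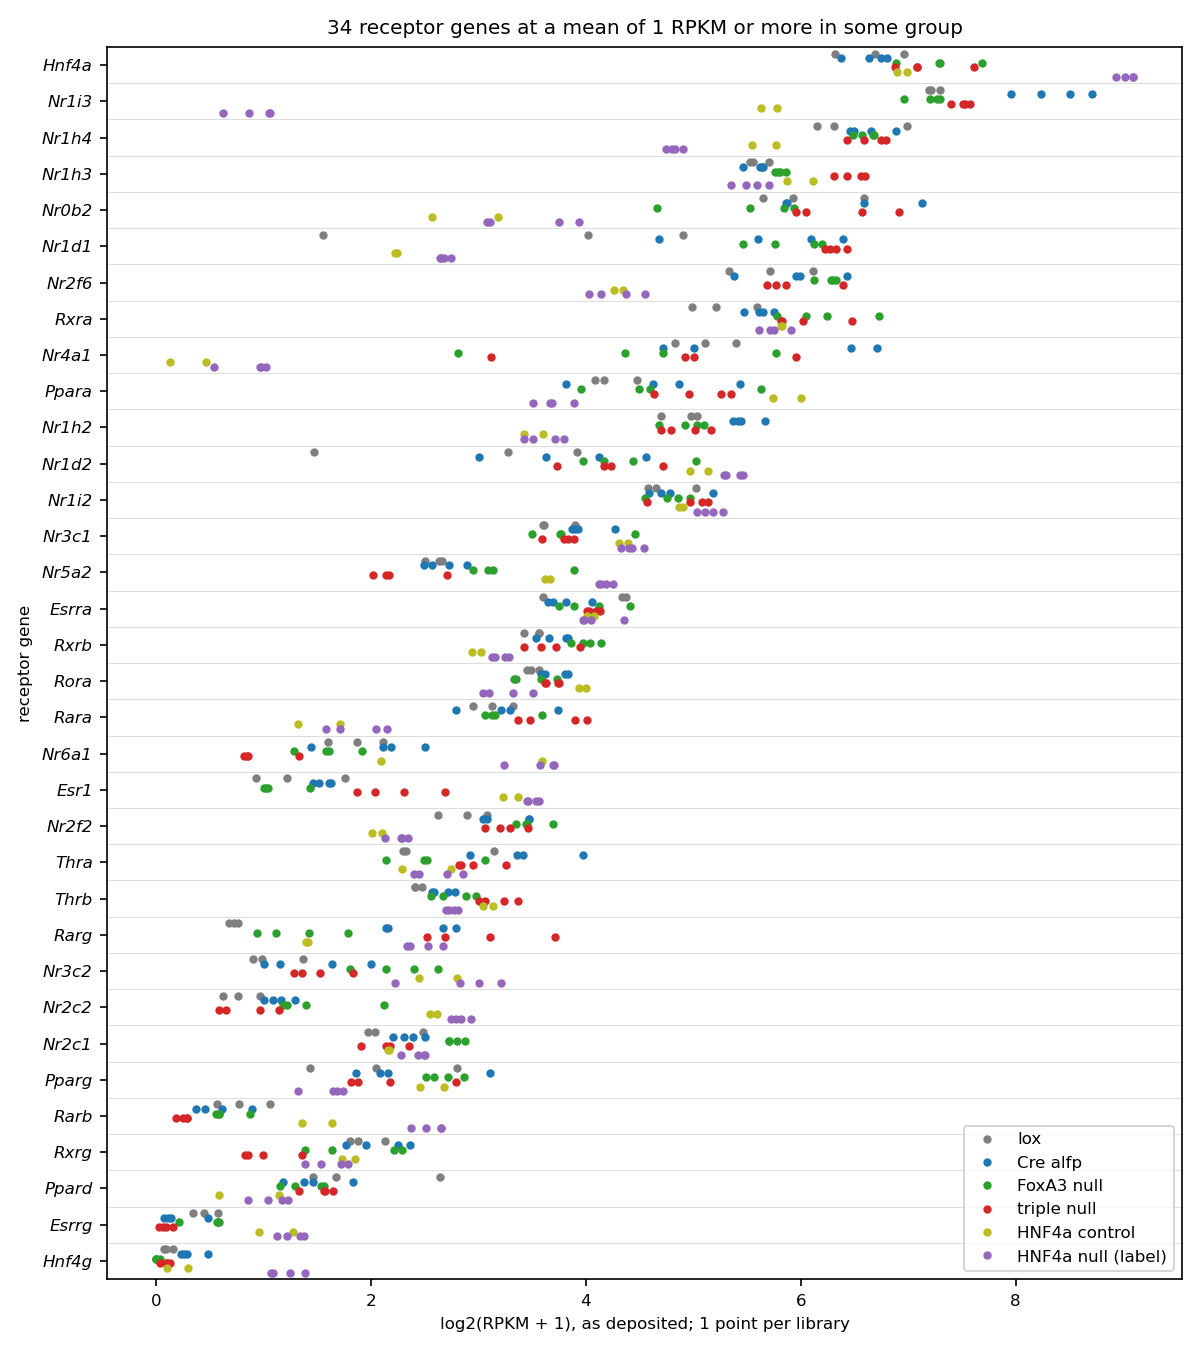
Level of each of the 34 receptor genes with a group mean of at least 1 RPKM, as log2(RPKM + 1) of the deposited values, 1 point per library, coloured by group. Nr1i3 spans from 0.545 RPKM in a library labelled HNF4a null to 418 RPKM in Cre alfp.

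Promoter windows are shown for 4 receptors on which the results below turn: Rarg and Nr1i3, which rose in Cre alfp, and Esr1 and Nr5a2, which moved in opposite directions in the triple null. Each is the 250 bases before a RefSeq start (build GRCm38.p6, on the strand of the gene), in lower case, with matches to the searched motifs in capitals. The motifs, searched on both strands, were the nuclear receptor half-site AGGTCA, its direct repeat with 1 base between the copies, the HNF4a core CAAAGTCCA, the FoxA core TGTTTAC with its other form TGTTTGC, the E-box CACGTG, and the site of REV-ERB and ROR, which is TAGGTCA. This last site and the direct repeat both contain the half-site, so their matches overlap it. Rarg has 2 starts in the table, and the window at chr15:102257523-102257772 (minus strand) holds AGGTCA, on the reverse strand, 225 bases before the start. Nr1i3 has 1 start, at chr1:171213720-171213969 (plus strand), with CACGTG 244 bases before it. Esr1 has 2, and chr10:4611739-4611988 (plus strand) holds TGTTTGC on the reverse strand 151 bases before the start. Nr5a2 also has 2, and chr1:136960449-136960698 (minus strand) holds AGGTCA 64 bases before the start.
Rarg: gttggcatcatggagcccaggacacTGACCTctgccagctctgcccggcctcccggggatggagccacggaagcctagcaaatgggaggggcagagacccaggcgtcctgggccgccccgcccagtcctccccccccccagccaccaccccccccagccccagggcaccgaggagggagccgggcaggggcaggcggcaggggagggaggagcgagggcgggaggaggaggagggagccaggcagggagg
Nr1i3: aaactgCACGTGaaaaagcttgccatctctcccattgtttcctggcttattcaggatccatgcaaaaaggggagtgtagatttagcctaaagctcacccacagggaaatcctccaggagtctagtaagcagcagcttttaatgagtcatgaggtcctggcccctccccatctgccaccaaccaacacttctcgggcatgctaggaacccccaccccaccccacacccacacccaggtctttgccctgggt
Esr1: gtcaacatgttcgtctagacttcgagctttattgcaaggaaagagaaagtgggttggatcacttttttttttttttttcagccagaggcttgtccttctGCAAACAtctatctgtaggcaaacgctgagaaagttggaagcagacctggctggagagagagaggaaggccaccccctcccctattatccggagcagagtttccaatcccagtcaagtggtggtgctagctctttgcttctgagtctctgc
Nr5a2: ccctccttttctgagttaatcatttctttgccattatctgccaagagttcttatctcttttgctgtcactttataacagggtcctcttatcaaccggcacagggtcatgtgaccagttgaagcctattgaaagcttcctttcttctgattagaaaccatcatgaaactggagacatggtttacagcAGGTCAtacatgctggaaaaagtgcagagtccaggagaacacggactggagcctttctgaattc

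In all, 42 of the 46 receptors had at least 1 window in the table, 63 windows together. AGGTCA occurred in windows of 10 receptors, in 11 of 63 windows, and in 14.0% of the 32536 distinct windows of all genes. TGTTTGC occurred in Esr1, Nr0b1, Nr1i2 and Rarb, and in 4.31% of all windows. TGTTTAC occurred in Nr2f1 and Rxrb, and in 3.17% of all windows. CACGTG occurred in Esr2, Nr0b2, Nr1i3, Rara and Thrb, and in 6.04% of all windows. No receptor window held CAAAGTCCA, the direct repeat or TAGGTCA, which occurred in 0.387%, 0.0338% and 2.24% of all windows. These matches are a description of the sequence and say nothing of binding.

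Triple null against FoxA3 null asks what deletion of FoxA1 and FoxA2 does where FoxA3 is already missing. The retinoic acid receptor gene Rarg, the estrogen receptor gene Esr1, the oxysterol receptor gene Nr1h3 (LXRa) and the thyroid hormone receptor gene Thrb rose. The orphan receptor genes Nr5a2 (LRH-1), Nr2c1, Nr2c2 and Nr6a1, the mineralocorticoid receptor gene Nr3c2, and the RXR genes Rxrb and Rxrg fell. A gene passed when its Benjamini-Hochberg adjusted p from limma, over all tested genes, was under 0.05. Of 32 receptors tested, 11 passed (34.4%), beside 30.0% of the 11500 genes tested, and 3 of them also differed by at least 1 on the log2 scale (Rarg, Esr1, Nr5a2), beside 7.86% of all genes. Differences are on the log2(RPKM + 1) scale after scaling each library to the median of all genes, which understates changes of low genes. The median difference was -0.03 over the 32 receptors and 0 over all genes. Of these, 4 were higher and 7 lower, beside 14.9% and 15.0% of all genes. For 11 receptors the libraries of the groups did not overlap, beside 27.9% of all genes. Leaving out single libraries gave 8 to 10 receptors. Of those that fell, Nr2c1, Nr2c2, Nr3c2, Nr5a2 and Rxrb also passed as higher in FoxA3 null against lox. None of them passed in triple null against lox, though Nr5a2 was lower there in the authors' deposited table. Both comparisons cross the library split. Mean RPKM in FoxA3 null, triple null and lox was 5.9, 3.5 and 3.5 for Nr2c1. It was 1.9, 0.81 and 0.73 for Nr2c2, and 3.8, 1.9 and 1.1 for Nr3c2. It was 9, 3.9 and 5.1 for Nr5a2, and 15.1, 11.8 and 10.5 for Rxrb.

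Cre alfp against lox asks what deletion of FoxA1 and FoxA2 does where FoxA3 is intact, but with a Cre active from the fetal liver onward in place of a virus given to adults. Rarg, Nr1i3, the clock receptor gene Nr1d1 (REV-ERBa) and the oxysterol receptor gene Nr1h2 (LXRb) rose, and no receptor fell at this threshold. These 4 were 12.5% of the 32 receptors tested, beside 6.21% of all genes; 3 of them (Rarg, Nr1i3, Nr1d1) also differed by at least 1, beside 2.43% of all genes. All 4 were higher, beside 3.27% of all genes, while 2.94% of all genes were lower. The libraries of 6 receptors did not overlap, beside 19.9% of all genes. The median difference was 0.22 over the receptors and 0.01 over all genes, with 27 of 32 receptors above 0. The count of receptors is small and moved between 2 and 5 with single libraries left out. It was 2 without lox replicate 1 or 3, or without Cre alfp replicate 1 or 3. With only these 2 groups in the fit it was also 2. Over all genes 714 passed, with 326 to 698 when single libraries were left out and 395 with only these 2 groups. The 7 erythroid markers summed to 82.7 to 93.2 RPKM in lox and 18.3 to 30.8 in Cre alfp. Of 5 tested, 1 rose and 1 fell, the latter Alas2, from 84 ± 4.96 to 14.9 ± 7.47 RPKM. Their part in the receptor differences was not tested.

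**Figure D3:**
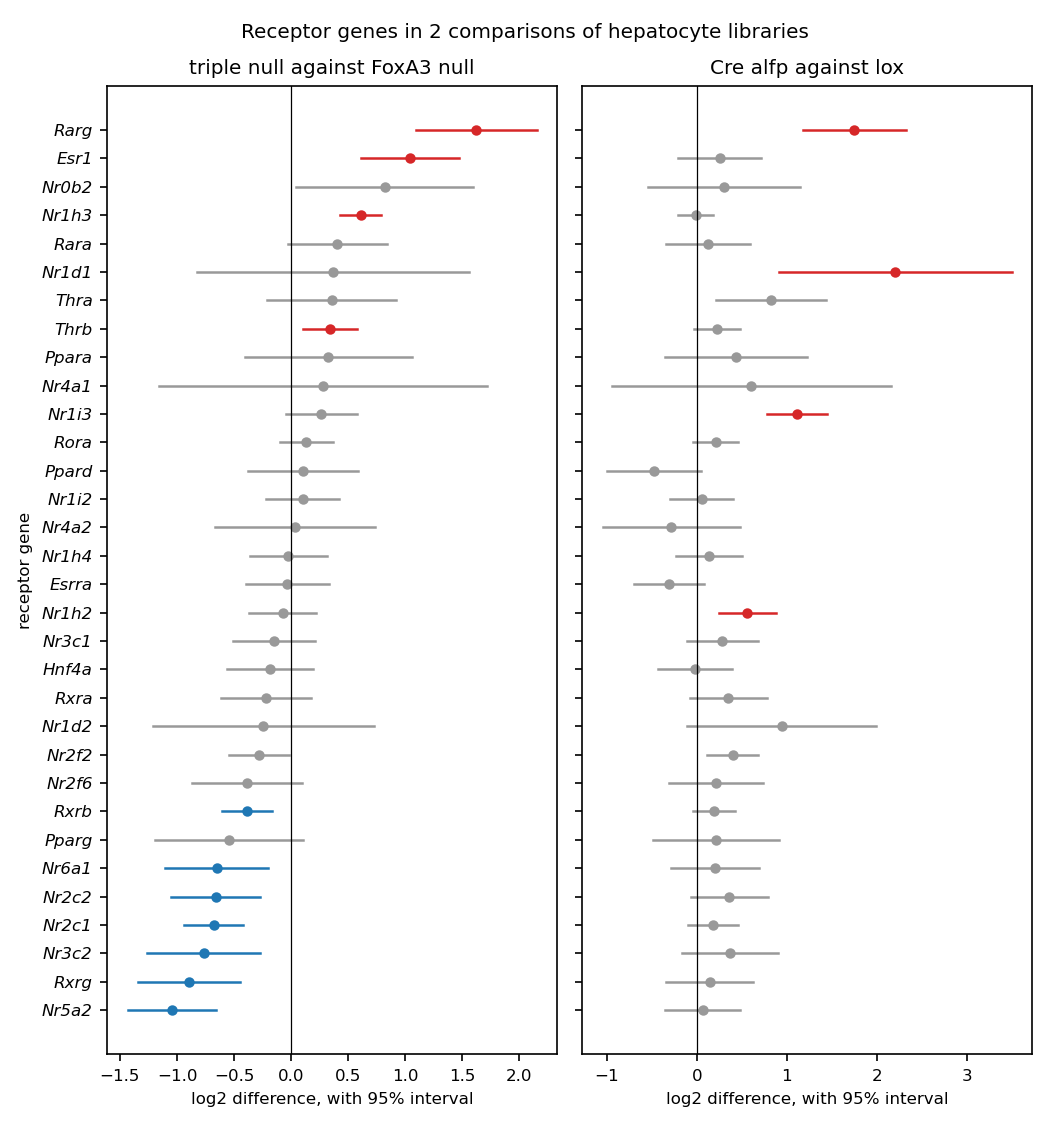
Log2 difference with its 95% interval for the 32 receptor genes tested, in triple null against FoxA3 null (left) and Cre alfp against lox (right), in the order of the left panel. Red genes passed as higher and blue genes as lower; Rarg passed as higher in both panels, and the 7 genes in blue on the left did not pass on the right.

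Liver libraries labelled HNF4a null against control ask what HNF4a loss does in adult liver. Nr1i3 was almost lost, the fatty acid receptor gene Ppara and the bile acid receptor gene Nr1h4 (FXR) fell, and so did Pparg, Rora, Nr1h3, Thrb and Rxra. Hnf4a itself rose, with its paralog Hnf4g and the retinoic acid receptor genes Rarb and Rarg. Of 33 receptors tested, 12 passed (36.4%), close to 36.5% of the 12434 genes tested, and 6 differed by at least 1, beside 12.5% of all genes. The deposited RPKM of all genes were shifted upward by 0.34 in these libraries (1.26-fold at the median), and the tests are relative to that shift. Of them, 4 were higher and 8 lower, beside 17.5% and 19.0% of all genes, and the libraries of 20 receptors did not overlap, beside 67.0%. The median difference was -0.10 over the receptors and 0.04 over all genes. Without scaling, 14 receptors passed, 7 higher and 7 lower, beside 52.8% of all genes (41.1% higher and 11.7% lower). Rxra was then lost and Nr1d1, Nr1d2 and Nr5a2 gained, all in the direction of the shift. With quantile normalization 22.6% of all genes were higher and 15.5% lower. Beside the receptors, the 10 hepatocyte markers summed to 29975 and 30208 RPKM in the controls and 14107 to 15826 in the other liver libraries, with 1 higher and 7 lower and a median difference of -1.54; their part in these results was not tested.

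The xenobiotic receptors CAR (Nr1i3) and PXR (Nr1i2) induce drug-metabolising enzymes. Nr1i3 was 148, 146 and 156 RPKM in lox and 418, 248, 300.5 and 361.5 in Cre alfp, so that each Cre alfp library lay above each lox library. The difference was 1.11 on the log2 scale (SE 0.16, limma adjusted p 0.00075). In FoxA3 null Nr1i3 was 146, 156, 154 and 124 RPKM, and in the triple null 190, 184, 181 and 168. These groups did not overlap either, but their difference of 0.26 missed the threshold (SE 0.14, limma adjusted p 0.183). In liver Nr1i3 was 54 and 48.5 RPKM in the controls and 0.826, 0.545, 1.09 and 1.07 in the libraries labelled HNF4a null, a difference of -5.10 on the log2 scale (SE 0.15, limma adjusted p 2.09e-06). It moved from rank 5 of the 46 receptors in the controls to rank 33. Tomm40l, whose locus overlaps Nr1i3 in the annotation, moved the other way, from 11.9 ± 2.55 RPKM (n = 2) to 41.4 ± 6.35 (n = 4). Nr1i2 stayed between 22.4 and 35.4 RPKM across the hepatocyte libraries and 28.2 and 37.9 in liver, and passed in none of the main comparisons.

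The oxysterol receptors LXRa (Nr1h3) and LXRb (Nr1h2) and the bile acid receptor FXR (Nr1h4) govern sterol and bile acid handling. Nr1h3 was 53.1, 57.1, 54.3 and 54.9 RPKM in FoxA3 null libraries and 78.2, 85, 95.8 and 93.2 in triple null ones. The groups were far apart relative to their spread, with a difference of 0.61 on the log2 scale (SE 0.08, limma adjusted p 9.55e-05). It was 51, 46 and 45 RPKM in lox and 49, 48.1, 48.8 and 43 in Cre alfp, a difference of -0.01 with a 95% interval from -0.20 to 0.18. In liver Nr1h3 fell from 57.5 and 68.3 RPKM to 51.2, 47.3, 43.8 and 39.9, by 0.82 on the log2 scale (SE 0.13, limma adjusted p 0.00311); without scaling the difference was -0.46 (limma adjusted p 0.0231). LXRa is also expressed in macrophages. The 9 Kupffer and macrophage markers in the matrix summed to 14 to 19 RPKM in FoxA3 null, 8.87 to 30.5 in the triple null, 103 and 111 in the liver controls and 123 to 158 in those labelled HNF4a null; their part in the result was not tested. Nr1h3 also overlaps Acp2 on the opposite strand, which was 10.8 ± 1.48 RPKM in FoxA3 null libraries and 13.7 ± 1.58 in triple null ones (n = 4 each), and whether reads were counted by strand is not given in the sources used here.

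Nr1h2 was 30.6, 31.8 and 25 RPKM in lox and 49.7, 40.2, 42.6 and 41.7 in Cre alfp, without overlap, a difference of 0.56 on the log2 scale (SE 0.15, limma adjusted p 0.0378). That call was lost in 8 of 17 alternative settings. In triple null against FoxA3 null its difference was -0.07 (SE 0.14). Nr1h4 was 88.6 to 102 RPKM in FoxA3 null, 85.3 to 110 in the triple null, 70.1 to 126 in lox and 87.1 to 117 in Cre alfp, and these ranges overlapped. In liver Nr1h4 was 53.6 and 45.8 RPKM in the controls and 29, 26.8, 27.4 and 25.9 in the libraries labelled HNF4a null, which all lay lower. Its difference was -1.20 on the log2 scale (SE 0.10, limma adjusted p 0.000158). Nr0b2 encodes SHP, a corepressor without a DNA-binding domain that FXR induces. It was 24.3 to 60.3 RPKM in FoxA3 null libraries and 61.2 to 119 in triple null ones; these did not overlap, and the difference of 0.82 missed the threshold (SE 0.36, limma adjusted p 0.102). Nr0b2 was far lower in the liver set, at 4.94 to 14.3 RPKM, than in hepatocytes, at 24.3 to 139; the sets differ in tissue and were fitted separately.

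PPARa (Ppara) senses fatty acids and drives their oxidation, while PPARg (Pparg) is best known from fat cells. Ppara was 63.2 and 52.4 RPKM in the liver controls and 13.8, 11.9, 11.7 and 10.4 in the libraries labelled HNF4a null, a difference of -2.53 on the log2 scale (SE 0.13, limma adjusted p 2e-05). No library of one group came near the other. In hepatocytes Ppara varied within groups, from 14.5 to 48.4 RPKM in FoxA3 null, where replicate 1 was highest, and from 13.1 to 42.2 in Cre alfp. It passed in neither FoxA comparison. Pparg fell in liver from 4.5 and 5.43 RPKM to 2.13, 2.22, 2.35 and 1.5, by 1.26 on the log2 scale (SE 0.16, limma adjusted p 0.00125). In triple null against FoxA3 null its difference was -0.55 (SE 0.30, limma adjusted p 0.19), with overlapping libraries. Ppard, the ubiquitous member, stayed under 5.26 RPKM in each library and passed in none of the 3 comparisons.

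Retinoic acid receptors (Rara, Rarb, Rarg) bind retinoic acid and pair with RXR. Rarg was 0.658, 0.701 and 0.599 RPKM in lox and 5.35, 3.47, 5.94 and 3.42 in Cre alfp. It was 1.18, 2.44, 1.68 and 0.912 RPKM in FoxA3 null libraries and 7.62, 5.45, 12.1 and 4.73 in triple null ones. In both pairs the deleted libraries lay above all undeleted ones. The log2 difference was 1.75 in Cre alfp against lox (SE 0.27, limma adjusted p 0.0014) and 1.62 in triple null against FoxA3 null (SE 0.25, limma adjusted p 0.000233). Rarg also rose in liver, from 1.63 and 1.66 RPKM to 5.36, 4.05, 4.78 and 4.13, by a difference of 0.81 on the log2 scale (SE 0.13, limma adjusted p 0.00352). Rarg was the only receptor that passed in each of these 3 comparisons.

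Rarb was below the filter in hepatocytes, at 0.139 to 1.09 RPKM. In liver it was 1.57 and 2.11 RPKM in the controls and 4.69, 5.27, 5.27 and 4.17 in the libraries labelled HNF4a null, a difference of 0.78 on the log2 scale (SE 0.14, limma adjusted p 0.00633). Without the control ACTGATA the adjusted p was 0.051. Rarb is known from stellate cells, and the 12 stellate and fibroblast markers summed to 158 and 173 RPKM in the controls and 190 to 212 in those labelled HNF4a null, with none of the 11 tested markers passing; their part in the result was not tested. Rara was 7.33 to 11.1 RPKM in FoxA3 null libraries and 9.34 to 15.1 in triple null ones, a difference of 0.40 that missed the threshold (SE 0.20, limma adjusted p 0.149).

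RXRs are the shared partners of most of these receptors. Rxrg was 1.62, 2.11, 3.89 and 3.65 RPKM in FoxA3 null libraries and 0.77, 0.807, 0.992 and 1.56 in triple null ones, with no overlap. It fell by 0.89 on the log2 scale (SE 0.21, limma adjusted p 0.00533). Rxrb was 16.7, 13.6, 15.5 and 14.7 RPKM in FoxA3 null libraries and 9.77, 12.2, 14.4 and 11 in triple null ones; triple null replicate 3 overlapped the FoxA3 null range. Its difference was -0.39 (SE 0.10, limma adjusted p 0.0108). Rxra, the main RXR of hepatocytes, was 53.8 to 105 RPKM in FoxA3 null libraries and 55.3 to 88.1 in triple null ones, which overlapped. In liver Rxra was 55.6 and 55.5 RPKM in the controls and 51.5, 58.9, 47.8 and 52.9 in the libraries labelled HNF4a null. That overlap became a difference of -0.44 after scaling (SE 0.09, limma adjusted p 0.00995), while as deposited it was -0.08 with adjusted p 0.559. The call was also lost with quantile normalization and without either control library.

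Thyroid hormone receptor genes Thra and Thrb differ by tissue, and Thrb is known as the main form in hepatocytes. By group mean, Thrb was above Thra in FoxA3 null (5.88 and 5.03 RPKM) and in the triple null (8.05 and 6.87). It was below Thra in lox (4.4 and 5.26 RPKM) and in Cre alfp (5.34 and 10.1). Thrb was 6.87, 6.37, 5.39 and 4.91 RPKM in FoxA3 null libraries and 8.43, 7.04, 9.36 and 7.36 in triple null ones, just without overlap. Its difference was 0.34 on the log2 scale (SE 0.11, limma adjusted p 0.0308), and the call was lost in 6 of 18 alternative settings, including fits without FoxA3 null replicate 3 or 4 or without triple null replicate 1 or 3. In liver Thrb fell from 7.78 and 7.23 RPKM to 6, 5.83, 5.61 and 5.48, by 0.66 on the log2 scale (SE 0.09, limma adjusted p 0.00154); without scaling the difference was -0.34 (limma adjusted p 0.0197). Thrb thus rose in the triple null and fell in the libraries labelled HNF4a null, in sets that were fitted separately, and the difference between these effects was not tested.

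HNF4a (Hnf4a) binds as a homodimer and is a central regulator of hepatocyte genes. In hepatocytes Hnf4a was 117 to 205 RPKM in FoxA3 null, 116 to 195 in the triple null, 78.7 to 124 in lox and 82.2 to 111 in Cre alfp, and it passed in neither FoxA comparison. In liver its difference was 1.73 on the log2 scale (SE 0.08, limma adjusted p 1.29e-05), on the values given with the label check. Hnf4g, its paralog of the gut and other epithelia, was 0.0706 and 0.232 RPKM in the controls and 1.37, 1.13, 1.1 and 1.61 in the libraries labelled HNF4a null, a difference of 0.90 (SE 0.15, limma adjusted p 0.00408). Hnf4g stayed at or under 0.399 RPKM in the hepatocyte libraries. Beside this, the 10 cholangiocyte markers summed to 18.2 and 19.2 RPKM in the liver controls and 139 to 238 in those labelled HNF4a null, and 6 of the 8 tested rose; their part in the results for Hnf4g, Rarb and Rarg was not tested. In bulk RNA, fewer cells of a type and less RNA per cell cannot be told apart.

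LRH-1 (Nr5a2) activates bile acid synthesis genes and is repressed by SHP. Nr5a2 was 13.8, 7.5, 6.75 and 7.78 RPKM in FoxA3 null libraries and 3.06, 3.42, 5.52 and 3.51 in triple null ones. All triple null libraries were lower, and FoxA3 null replicate 1 stood apart as high. The difference was -1.05 on the log2 scale (SE 0.18, limma adjusted p 0.000631), and the call held in each of 18 alternative settings, including the fit without that library. In Cre alfp against lox it was 0.06 (95% interval -0.35 to 0.48). In liver Nr5a2 was 11.3 and 11.7 RPKM in the controls and 16.5 to 18 in those labelled HNF4a null. The scaled difference of 0.19 missed the threshold (limma adjusted p 0.127), while the deposited values gave 0.53 and limma adjusted p 0.00266. Nr5a2 also passed with quantile normalization, and in none of the other alternative settings.

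The testicular orphan receptors TR2 (Nr2c1) and TR4 (Nr2c2) bind direct repeats of the half-site. Nr2c1 was 5.63, 6.35, 5.96 and 5.62 RPKM in FoxA3 null libraries and 3.39, 2.75, 4.12 and 3.54 in triple null ones, well apart. It fell by 0.68 on the log2 scale (SE 0.12, limma adjusted p 0.000795). Nr2c2 was 3.36, 1.27, 1.33 and 1.64 RPKM in FoxA3 null libraries and 0.567, 0.96, 1.22 and 0.504 in triple null ones. Replicate 1 of FoxA3 null was again highest, and the groups came close without overlapping; the difference was -0.66 (SE 0.18, limma adjusted p 0.0144). Nr2c2 overlaps Mrps25 on the opposite strand, which was 17.1 ± 3.46 RPKM in FoxA3 null libraries and 27.1 ± 4.07 in triple null ones (n = 4 each). Nr6a1 (GCNF), known from germ cells and the early embryo, was 2.77, 1.43, 2.05 and 1.99 RPKM in FoxA3 null libraries and 0.759, 1.52, 0.801 and 0.807 in triple null ones, where replicate 2 overlapped. Its difference was -0.65 (SE 0.21, limma adjusted p 0.0311), lost in 8 of 18 alternative settings. Among them were the fits without FoxA3 null replicate 1, 3 or 4 and without triple null replicate 1, 3 or 4.

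COUP-TFII (Nr2f2) and EAR2 (Nr2f6) are orphan receptors often described as repressors. Nr2f2 was 9.21 to 12 RPKM in FoxA3 null, 7.36 to 10 in the triple null, 5.18 to 7.46 in lox and 7.25 to 10.1 in Cre alfp. Neither comparison passed, at -0.28 (SE 0.12) and 0.40 (SE 0.13). COUP-TFII is also a gene of venous endothelium, and the 12 sinusoidal endothelium markers summed to 37 to 58.9 RPKM in FoxA3 null libraries and 10.7 to 22.8 in triple null ones, with 6 of 10 tested lower. The 12 stellate and fibroblast markers summed to 51 to 78.7 and 14.2 to 56.8 RPKM in the same groups. The 7 neutrophil markers summed to 0.77 to 1.87 and 9.47 to 110 RPKM, with Ly6g at 0 in both. Only 2 of the neutrophil markers were tested, and both rose. S100a8 went from 0.788 ± 0.361 to 32.4 ± 39.8 RPKM and S100a9 from 0.309 ± 0.157 to 8.71 ± 6.16. In triple null against FoxA3 null, 1 of 10 hepatocyte markers rose and 6 fell (median -0.98). Of 5 erythroid markers tested there, 3 rose and 1 fell (median 1.27). Yet the 7 erythroid markers summed to 35.8 to 50.1 RPKM in FoxA3 null and 10.5 to 29.9 in the triple null. The marker that fell was Alas2, from 38.85 ± 5.74 to 1.04 ± 0.281 RPKM. The part of these cell types in the receptor differences of the triple null was not tested. Nr2f6 was 68.7 to 79.4 RPKM in FoxA3 null libraries and 50.6 to 82.9 in triple null ones, with overlap and no call.

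REV-ERBs (Nr1d1, Nr1d2) and RORs compete for the same sites in the circadian clock. Nr1d1 was 1.94, 28.9 and 15.2 RPKM in lox and 67.3, 24.6, 83 and 47.4 in Cre alfp. The groups overlapped at Cre alfp replicate 2, and lox replicate 1 was far below its group. The difference was 2.204 on the log2 scale (SE 0.60, limma adjusted p 0.0441), and it was lost in 10 of 17 alternative settings, among them the fits without lox replicate 1 or 3 and without Cre alfp replicate 1, 3 or 4. The Nr1d1 locus overlaps that of Thra in the annotation, and Thra was 5.26 ± 2.23 RPKM (n = 3) in lox and 10.1 ± 3.41 (n = 4) in Cre alfp, a difference of 0.83 that missed the threshold (SE 0.28, limma adjusted p 0.108). Of 14 clock genes tested around these receptors, 0 passed in Cre alfp against lox, where their median difference was 0.12 against 0.01 for all genes. Nr1d2 was lowest in the same lox replicate 1, at 1.77 RPKM, and its difference of 0.94 did not pass (SE 0.49, limma adjusted p 0.314). Rora was 9.06 to 13.3 RPKM across the hepatocyte libraries. In liver Rora fell from 15 and 14.3 RPKM to 10.4, 8.99, 7.57 and 7.25, by 1.06 on the log2 scale (SE 0.14, limma adjusted p 0.00149).

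Steroid receptors include those for estrogen (Esr1), mineralocorticoids (Nr3c2) and glucocorticoids (Nr3c1). Esr1 was 1.04, 1.71, 1.06 and 1.01 RPKM in FoxA3 null libraries and 5.45, 3.1, 3.95 and 2.66 in triple null ones, all above the FoxA3 null range. The difference was 1.04 on the log2 scale (SE 0.20, limma adjusted p 0.0014) and held in each of 18 alternative settings. It was 0.907 to 2.37 RPKM in lox and 1.75 to 2.09 in Cre alfp, where the difference was 0.26 (95% interval -0.21 to 0.72). Nr3c2 was 5.16, 4.28, 2.5 and 3.4 RPKM in FoxA3 null libraries and 2.55, 1.56, 1.43 and 1.88 in triple null ones. FoxA3 null replicate 3 lay just below the highest triple null library. The difference was -0.77 (SE 0.23, limma adjusted p 0.0221), lost in 5 of 18 alternative settings, which include leaving out FoxA3 null replicate 1 or 2 or triple null replicate 2 or 3. Nr3c1 was 10.3 to 21 RPKM in hepatocytes and 18.8 to 22.2 in liver and passed in none of the 3 comparisons. Esrra, an orphan relative that drives oxidative metabolism, was 11.2 to 20.2 RPKM in hepatocytes and did not pass either. Esrrg was tested only in liver, at 0.947 to 1.59 RPKM, and did not pass. Nr4a1, an immediate early gene, varied widely in FoxA3 null (6.02 to 53.6 RPKM), the triple null (7.68 to 61) and Cre alfp (25.3 to 104). It varied less in lox, at 27.4 to 41.3 RPKM. In the liver set Nr4a1 was 0.0964 to 1.03 RPKM.

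**Figure D4:**
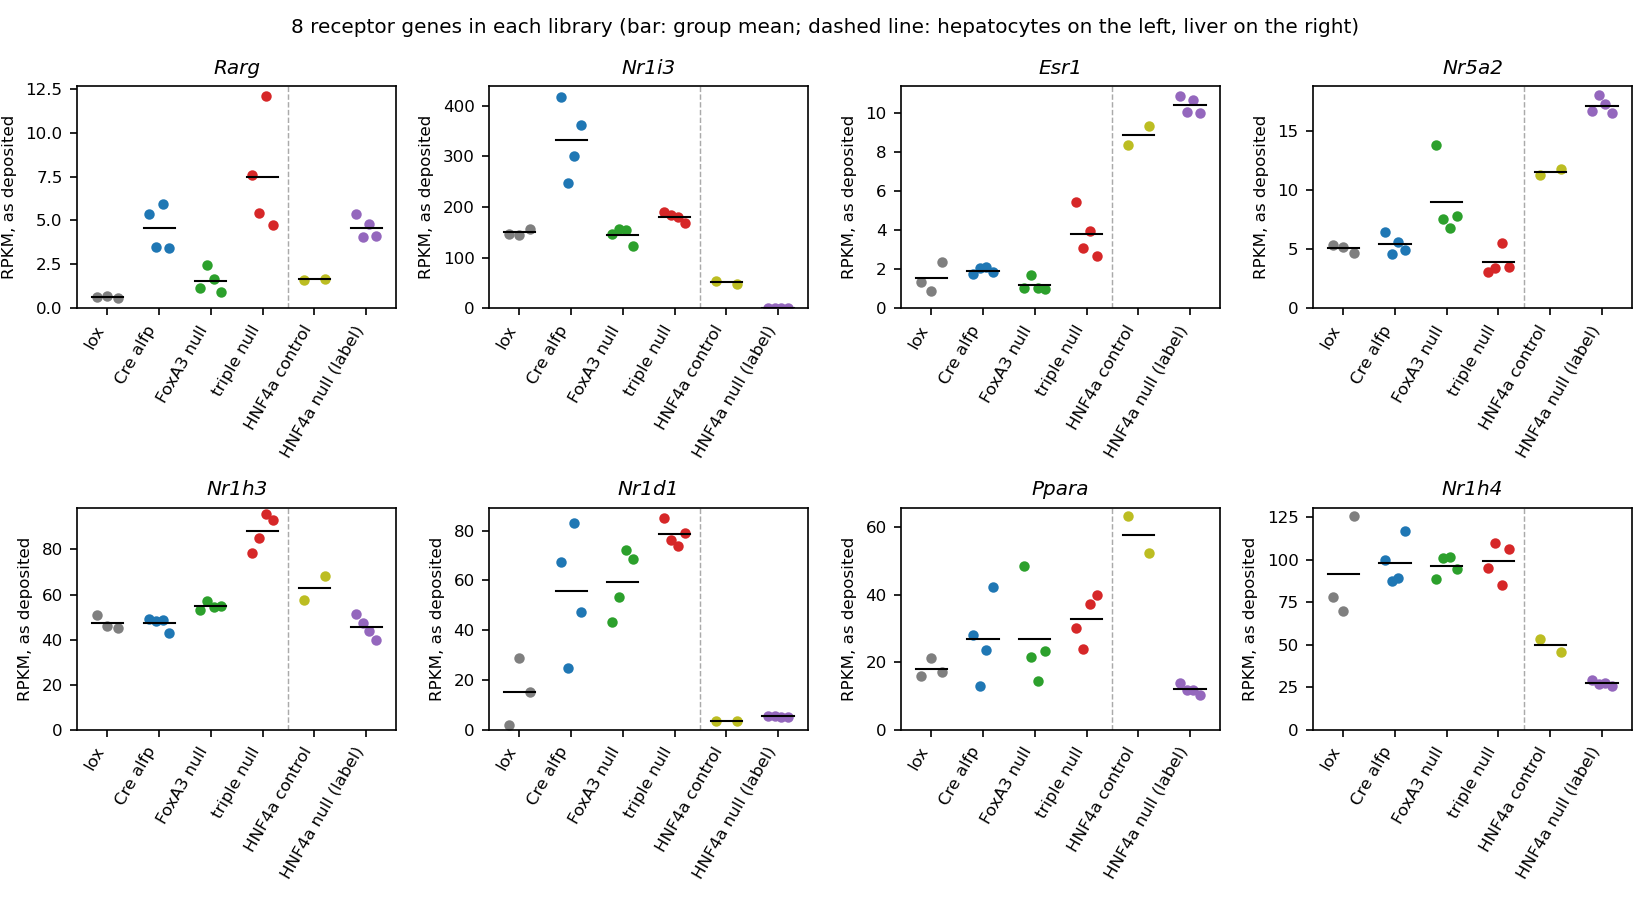
RPKM (as deposited) of 8 receptor genes in each library, with the group mean as a bar; each panel has its own axis from 0. Rarg is higher in Cre alfp, in the triple null and in the libraries labelled HNF4a null than in their controls, while Nr1i3 is highest in Cre alfp (418 RPKM) and lowest in the libraries labelled HNF4a null.

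**Figure D5:**
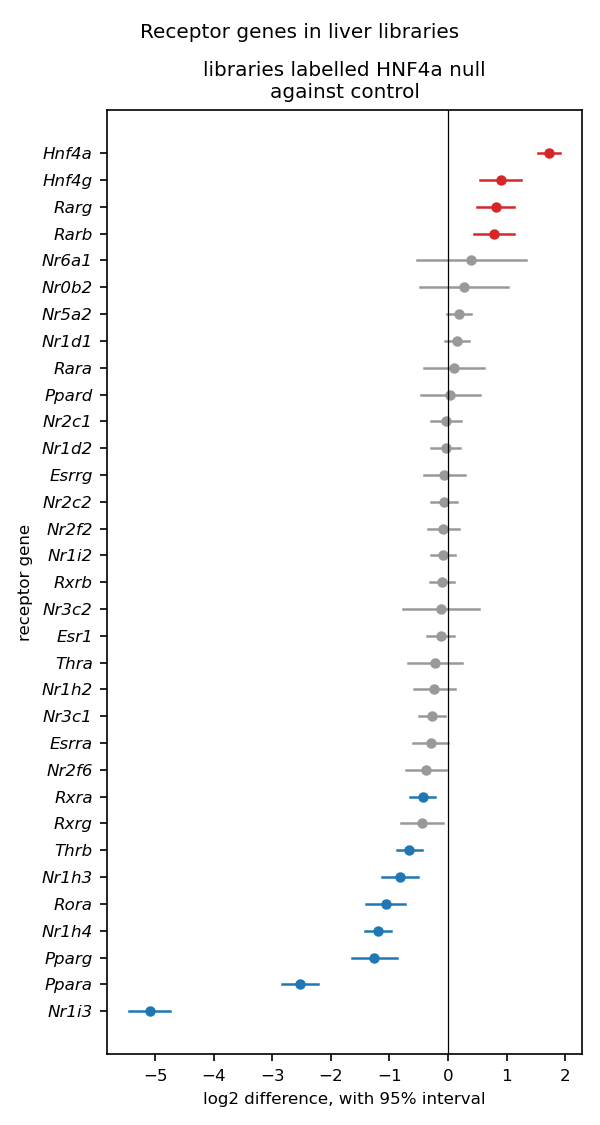
Log2 difference with its 95% interval for the 33 receptor genes tested in liver, libraries labelled HNF4a null against control, relative to the median of all genes. Red genes passed as higher and blue genes as lower; Nr1i3 lies farthest to the left at -5.10, and Hnf4a at 1.73 is highest.

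The interaction asks whether a receptor moved differently in the adult viral deletion without FoxA3 than in the Alfp-Cre deletion with FoxA3. Its value is the effect without FoxA3 less the effect with FoxA3. It passed for 10 of 32 receptors (31.2%), beside 14.8% of all genes. Positive values passed for 1 receptor (beside 7.10% of all genes), negative values for 9 (beside 7.67%), and 4 reached a size of at least 1 (beside 6.70%). Nr1h3 was more positive without FoxA3, by 0.62 (SE 0.12, limma adjusted p 0.00451). The other 9 were more negative: Nr1h2, Nr1i3, Nr2c1, Nr2c2, Nr2f2, Nr3c2, Nr5a2, Rxrb and Rxrg. Their values ranged from -1.14 for Nr3c2 to -0.58 for Rxrb. For Nr5a2 it was -1.11 (SE 0.26, limma adjusted p 0.0129), made of -1.05 without FoxA3 and 0.06 with it. For Nr1i3 it was -0.84 (SE 0.21, limma adjusted p 0.0169), made of 0.26 and 1.11. Rarg and Esr1 did not pass the interaction. The call for Nr1h2 was lost in 17 of 24 alternative settings, those for Nr3c2 and Rxrg in 12 each, those for Nr2c2 and Nr2f2 in 2 each and that for Rxrb in 1. Of 10 hepatocyte markers tested, 5 passed the interaction as lower and 1 as higher (median -0.70). Among the others, 1 of 10 sinusoidal endothelium markers (median -1.13) and 1 of 4 stellate and fibroblast markers (median -1.11) passed as lower, 0 of 6 Kupffer and macrophage markers passed (median -0.70, limma), and 2 of 2 neutrophil markers passed as higher (median 2.45). The part of these cell types in the interaction, that of Nr2f2 included, was not tested. Leaving out single libraries gave 6 to 9 receptors, and the count was 6 without the filter on low values. The 2 arms come from the 2 sides of the library split. They also differ in how and when FoxA1 and FoxA2 were deleted (a virus at 8 weeks, or Alfp-Cre). The triple null and Cre alfp further differ in the RNA left, of Foxa1 (3.28 and 1.24 RPKM) and, the other way, of Foxa2 (0.366 and 1.09 RPKM). Effects of any batch, of the deletion's timing and method, of the remaining Foxa1 and Foxa2 and of the FoxA3 genotype cannot be told apart here.

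The remaining comparisons, 3 in number, cross that split, and they share libraries with the ones above. In triple null against lox, 8 of 32 receptors passed (25.0%), beside 40.8% of all genes. Their libraries did not overlap for 12 receptors, beside 46.3% of all genes. Nr1d1, Rarg, Nr1h3, Esr1, Thrb and Rxra were higher and Nr6a1 and Rxrg lower, beside 19.4% and 21.4% of all genes, and 4 differed by at least 1, beside 12.9%. The call for Rxra was lost in 6 of 17 alternative settings and that for Esr1 in 1, without lox replicate 2. The difference was 2.15 for Rarg (SE 0.27) and -1.05 for Rxrg (SE 0.22). In triple null against Cre alfp 9 passed (28.1%), beside 38.8% of all genes. Nr1h3, Esr1 and Thrb were higher, and Nr1i3, Nr6a1, Rxrg, Nr1h2, Nr2c1 and Nr5a2 lower, with Nr1i3 at -1.04 (SE 0.14). Over all genes 17.8% were higher and 21.0% lower, and 10.0% differed by at least 1, as did 3 receptors. The call for Esr1 was lost in 9 of 18 alternative settings, those for Nr2c1 and Nr5a2 in 6 each and that for Thrb in 4. The libraries of 9 receptors did not overlap there, beside 39.6%. Without Cre alfp replicate 1 the count was 5. All 10 sinusoidal endothelium markers tested were lower in triple null against Cre alfp (median -1.33), with summed levels of 10.7 to 22.8 and 27.2 to 96 RPKM. Of the Kupffer and macrophage markers 4 of 6 were lower (median -0.94; sums of 8.87 to 30.5 and 18.7 to 55.1 RPKM), of the stellate and fibroblast markers 3 of 4, and of the hepatocyte markers 5 of 10. Against lox, 6 of 10 endothelium and 6 of 10 hepatocyte markers were lower in the triple null, while 1 and 2 of these were lower in FoxA3 null; the part of these cell types in the receptor differences was not tested. Without scaling, the shares of all genes higher and lower were 27.7% and 14.8% in triple null against lox, 26.9% and 14.4% against Cre alfp, and 21.7% and 13.0% in FoxA3 null against lox; 8 and 2, 4 and 4, and 11 and 0 receptors were then higher and lower. Quantile normalization gave 22.8% and 16.8% of all genes in triple null against Cre alfp. In FoxA3 null against lox 9 passed (28.1%), beside 34.2% of all genes: Nr1d1, Nr1d2, Nr3c2, Rxra, Nr2c1, Nr2c2, Nr2f2, Nr5a2 and Rxrb, all of them higher, where 16.0% of all genes were higher and 18.2% lower. A difference of at least 1 was reached by 3 of them, beside 7.36% of all genes. For 13 receptors the libraries did not overlap, beside 40.1%. Nr3c2 was higher by 1.07 there (SE 0.25, limma adjusted p 0.00638). That count was 4 with only the 2 groups in the fit, 5 without FoxA3 null replicate 1 or lox replicate 2, and 4 without lox replicate 1. Calls for Nr1d2 and Nr5a2 were lost in 8 of 17 alternative settings each, Nr2c2 in 5, Rxrb in 4, and Nr1d1, Nr2c1, Nr2f2 and Rxra in 1 each.

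The authors' deposited tables give their own tests. In the authors' deposited table of triple null against FoxA3 null, 16 of the 31 receptors listed had an adjusted p under 0.05, beside 42.7% of its genes. The same table gives each of the 11 receptors named above with the same sign and an adjusted p under 0.05. Against undeleted controls, the authors' deposited table gives 13 of 31 receptors (beside 51.6% of its genes), and against Cre alfp 12 of 32 (beside 50.9%). The 5 others in the table against FoxA3 null are Nr0b2 and Rara, higher, and Nr2f2, Nr2f6 and Pparg, lower. In the authors' deposited table for HNF4a, 19 of 36 receptors had an adjusted p under 0.05, beside 46.3% of its genes. It includes the 12 receptors that passed here, with the same signs, and gives Nr1i3 a log2 fold change of -5.42 and Hnf4g one of 2.67. Of the 19, 5 were higher and 14 lower. Those beyond the 12 were Nr4a1, higher and not tested here, and Nr1d2, Nr1h2, Nr2f6, Nr3c1, Nr3c2 and Esrra, all lower. For Nr1d2 the authors' deposited log2 fold change was -0.24, opposite in sign to the fit without scaling here.

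A further pair of the authors' deposited tables sets fetal hepatoblasts and newborn hepatocytes against adult hepatocytes, whose libraries are not given in the sources used here. In the authors' deposited values for hepatoblasts, 31 of 37 receptors had an adjusted p under 0.05, beside 79.2% of its genes, with 9 higher and 22 lower in hepatoblasts. The authors' deposited log2 fold changes in hepatoblasts were 3.98 for Rarg, 2.44 for Nr2c2, 0.33 for Rxrb, -0.67 for Nr2c1, -0.70 for Nr5a2, -1.44 for Rxrg, -1.79 for Nr3c2, -1.85 for Esr1, -4.92 for Thrb, -4.93 for Nr1h3 and -6.55 for Nr1i3. Nr6a1 stood at -0.16 in the authors' deposited values, with an adjusted p of 0.541. In the authors' deposited values for newborn cells, 24 of 35 receptors had an adjusted p under 0.05, beside 63.3% of its genes, with 14 higher and 10 lower. For the same 12 receptors, the authors' deposited log2 fold changes in newborn cells were 1.76 for Esr1, 1.15 for Nr2c2, 0.89 for Nr6a1, 0.77 for Nr5a2, 0.76 for Nr3c2, 0.35 for Thrb, 0.30 for Rxrb, -0.26 for Nr2c1, -0.33 for Nr1h3, -0.34 for Nr1i3, -0.47 for Rarg and -0.74 for Rxrg. Those for Nr2c1 and Rarg had an adjusted p of 0.334 and 0.21 in the authors' deposited table.

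Coregulators carry the receptors' effect on chromatin, as coactivators (the Ncoa family) or corepressors (such as Ncor1). In triple null against FoxA3 null 1 of 21 tested rose and 3 fell, beside 14.9% higher and 15.0% lower over all genes, with a median difference of -0.12 against 0. Ncor1 rose from 60.2 ± 15.9 to 130 ± 30.7 RPKM (n = 4 each), by 1.04 (SE 0.25, limma adjusted p 0.00639). In liver 3 of 23 rose and 1 fell, beside 17.5% and 19.0% of all genes. The one that fell was Pnrc1, from 9.84 ± 1.16 (n = 2) to 5.29 ± 0.479 RPKM (n = 4), and Prmt1 was among those that rose, from 4.1 ± 0.806 to 8.92 ± 1.8 RPKM. No coregulator passed in Cre alfp against lox (limma).

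Known targets of the receptors were counted next, each list beside the median of all genes, which was 0 for the triple null set against FoxA3 null and 0.04 for liver. Each count is to be read against the shares of all genes called higher and lower, which were 14.9% and 15.0% in the triple null, 17.5% and 19.0% in liver and 3.27% and 2.94% in Cre alfp. With lists of 7 to 24 genes, several counts, such as 3 and 2 of 15 glucocorticoid targets or 1 and 2 of 10 LXR targets, lie near those shares. Of 24 CAR and PXR targets in the triple null, 3 rose and 10 fell (median -0.52). The estrogen sulfotransferase gene Sult1e1 rose from 4.29 ± 1.7 to 1123 ± 281 RPKM, and Cyp2c50 fell from 266 ± 146 to 3.16 ± 1.68 (n = 4 each). In liver, where Nr1i3 was almost lost, 12 of 23 rose and 8 fell (median 0.98), and the largest differences were falls of Cyp2c50, from 153 ± 18.2 to 0.194 ± 0.117 RPKM, and of Cyp2c54. In Cre alfp against lox, where Nr1i3 rose, 5 of 24 rose and 1 fell (median 0.17 against 0.01 for all genes), with Sult1e1 at 0.141 ± 0.0331 RPKM in the lox group (n = 3) and 16.4 ± 9.3 in Cre alfp (n = 4). Cyp2b and Cyp2c genes are near-identical copies that share reads, so single values are uncertain.

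FXR targets numbered 13 tested. Against FoxA3 null, 1 rose and 5 fell in the triple null (median 0.03), with the bile acid hydroxylase gene Cyp8b1 falling from 55.6 ± 6.03 to 0.346 ± 0.138 RPKM. In liver 3 rose and 6 fell (median -0.53), and the bile acid conjugation genes Slc27a5, from 724 ± 67.6 to 3.17 ± 1.24 RPKM, and Baat, from 129 ± 6.34 to 0.906 ± 0.182, fell most. Among 10 LXR targets tested in the triple null, 1 rose and 2 fell (median -0.25); Nr1h3, which rose, is itself on that list, and Abcg8 and Abca1, which encode sterol exporters, were those that fell. In liver 1 of 12 rose and 6 fell (median -0.57), and Nr1h3 itself was among those that fell. Scd1, a fatty acid desaturase gene, went from 1294 ± 200.4 to 68.6 ± 20.8 RPKM.

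PPARa targets moved both ways. Against FoxA3 null, 6 of 24 rose and 9 fell (median -0.22); the fatty acid transporter gene Cd36 rose from 3.84 ± 2.26 to 32.7 ± 10.9 RPKM and Acot1 fell from 15.3 ± 5.96 to 0.438 ± 0.213. In liver, where Ppara fell, 8 of 23 rose and 10 fell (median 0.13), and Fabp1 fell from 7196 ± 303 to 34.2 ± 20.5 RPKM. Of 8 retinoid genes tested in the triple null 3 rose and 2 fell (median 0.02). Cyp26a1, the retinoic acid hydroxylase gene and a known RAR target, rose from 10.5 ± 3.23 to 57.2 ± 40.5 RPKM, a difference of 2.05 on the log2 scale (SE 0.47, limma adjusted p 0.00512), while the retinol dehydrogenase gene Rdh7 fell from 890.5 ± 26.6 to 170.5 ± 18.3. In liver 1 of 9 rose and 5 fell (median -1.62).

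Glucocorticoid receptor targets were 15 in number, of which 3 rose and 2 fell in the triple null (median 0.23) and 5 rose and 5 fell in liver (median -0.001 against 0.04 for all genes). Lcn2, also an acute phase gene, rose in the triple null from 21.4 ± 12.7 to 742 ± 201 RPKM. Of 7 thyroid receptor targets 1 rose and 2 fell in the triple null (median 0.13) and 1 rose and 4 fell in liver (median -0.40), where Dio1, the type 1 deiodinase gene, fell from 120.4 ± 17.8 to 0.155 ± 0.164 RPKM. Of 14 clock genes 0 rose and 1 fell in the triple null, and of 11 in liver 2 rose, Per3 and Bhlhe40, and 2 fell. In Cre alfp against lox the other lists held few calls, with 2 higher and 1 lower of 24 PPARa targets, 1 and 1 of 13 FXR targets, 0 and 1 of 7 thyroid receptor targets, and none among the LXR, glucocorticoid and retinoid lists by limma.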

How the data were processed

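RNA was sequenced from mouse hepatocytes and liver, and the authors deposited 1 matrix of RPKM values for 33773 gene symbols. Per the submitters' processing notes, SAMtools, Cufflinks 2.2.1, DESeq2 and build mm9 were used, with no role stated. The matrix holds 9 columns matched to no sample, which were not used. Lox columns were matched through the labels' titles, and liver columns carry barcodes in place of replicate numbers. The authors' deposited comparison tables give a log2 fold change and p-values per gene; the table against undeleted controls was turned in sign, and p-values of the table against Cre alfp were adjusted here.

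RPKM were scaled to the median of ratios and tested as log2(RPKM + 1) with limma 3.58.1 in R 4.3.3 (lmFit, eBayes with a trend). The 15 hepatocyte libraries entered 1 fit (genes reaching RPKM 1 in 3 or more of them), and the 6 from liver another (2 or more). Printed RPKM are as deposited. The authors' values are not read counts (2.90% of values above 0 were under 1e-06), and no count model was fitted. Members and gene lists were chosen with earlier results of these data known. Receptors that passed in a main comparison with a mean of at least 1 RPKM are given by library, the others by range; in each list, the 2 genes with the largest difference and at least 5 RPKM are eligible to be named. Alternatives were the scaling, the pseudocount, the filter, the variance model, a replicate block, the groups in the fit and single libraries left out. Same-numbered libraries did not deviate together (correlations -0.361 to 0.171, median -0.037, over 21 pairs). The result for 1 gene of these lists is not reported here.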

Additional observations from a re-analysis of the deposited data

Results flagged for a closer look

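The effect of FoxA1/A2 deletion differed for 10 receptors between the arm without FoxA3, deleted by virus in adults, and the arm with FoxA3, deleted by Alfp-Cre, by the interaction test (limma adjusted p under 0.05). FoxA3 status, the timing and method of deletion, and any batch that follows the library split cannot be told apart in this contrast. The difference of effects on the log2 scale was 0.62 for Nr1h3, -0.63 for Nr1h2, -0.84 for Nr1i3, -0.86 for Nr2c1, -1.02 for Nr2c2, -0.68 for Nr2f2, -1.14 for Nr3c2, -1.11 for Nr5a2, -0.58 for Rxrb and -1.04 for Rxrg. The call for Nr1h2 was lost in 17 of 24 alternative settings, those for Nr3c2 and Rxrg in 12 each, those for Nr2c2 and Nr2f2 in 2 each and that for Rxrb in 1; the other 4 were kept in each setting.

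In 38 sets of 4 libraries, taken from receptors that passed a main comparison, 3 had a library far from the other 3, where chance gives about 1 in 20. Nr5a2 stood at 13.8 RPKM in FoxA3 null replicate 1, Esr1 at 1.71 RPKM in FoxA3 null replicate 2 and Nr6a1 at 1.52 RPKM in triple null replicate 2.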

How the results depend on the processing

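No receptor that passed changed sign under the alternatives run. Of the 11 receptors that passed in triple null against FoxA3 null, the counts ran from 8 to 10 with single libraries left out, and 3 differed by at least 1 on the log2 scale. In Cre alfp against lox, 4 passed, with 2 under the replicate block, 2 with only these groups in the fit, and 2 to 5 with single libraries left out. For the interaction, 10 passed, with 6 without a filter on low values, 6 to 9 with single libraries left out and 4 at a difference of at least 1. FoxA3 null against lox gave 9, with 4 when only these groups entered, 4 to 10 with single libraries left out and 3 at a difference of at least 1. Triple null against lox gave 8 (6 to 10 with single libraries left out, 4 at a difference of at least 1), and triple null against Cre alfp 9 (5 to 9, and 3). The liver comparison gave 12 (11 to 14, and 6). Over all genes, Cre alfp against lox fell from 714 to 395 with only these groups in the fit, FoxA3 null against lox from 3938 to 2593, and the liver comparison from 4537 to 2671 without the control ACTGATA and 2713 without ATTCCTA. Without lox replicate 1, 2, or Cre alfp replicate 1 or 3, Cre alfp against lox gave 326, 425, 365 and 471 genes, and FoxA3 null against lox gave 2429 and 2499 without lox replicate 1 or 2. Same-numbered libraries share only a number, 0 of 15 libraries correlated best with their own number, and the block gave 10 receptors in triple null against FoxA3 null. No paired analysis was possible for the liver libraries because their columns carry no replicate number. Absolute depth is unknown, and the liver comparison has 2 controls, which limits its precision.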
